A study of Mus musculus with 6 samples.

Results

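Matrix proteoglycan expression was examined in mammary tumors of NeuT/ATTAC mice as 10 genes chosen by symbol: the small leucine-rich proteoglycans Dcn, Bgn, Aspn, Lum, Fmod, Prelp, Omd and Ogn, and the large proteoglycans Vcan and Hspg2. All 10 symbols matched 1 Ensembl gene ID each among the 54532 IDs of the deposited files. RNAseq had been performed on 3 tumors from mice given an isotype-matched IgG and 3 from mice given anti-PD-1, an antibody against the immune checkpoint receptor PD-1, and the study asked which expression changes accompany the antibody in fibrotic tumors. All 6 tumors carry the MMTV-NeuT transgene, in which the mammary tumor virus promoter drives Erbb2 in mammary epithelium, and the FAT-ATTAC transgene, through which the dimerizer AP20187 ablates adipocytes and induces fibrosis. FAT-ATTAC came from a C57BL/6 background and was bred into FVB. AP20187 was given to all mice at 0.4 mg/kg, starting at an age of 6 weeks, biweekly by the labels and triweekly by the methods of the study, and 100 µg of 1 of the 2 antibodies 2 times per week from 8 weeks of age. There was no group without AP20187, so none of the values below compares fibrotic with non-fibrotic glands. The labels number 3 tumors per group, whereas a legend of the study describes pooled RNA, and p-values measure only the spread between these libraries.

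Proteoglycans are proteins that carry glycosaminoglycan chains. The small leucine-rich members have a curved repeat domain with which most of them bind collagen fibrils and set fibril width and spacing, and several bind growth factors such as TGF-beta. Versican (Vcan) holds hyaluronan in loose, cell-rich matrix, and perlecan (Hspg2) is a heparan sulfate proteoglycan of basement membranes. In the mammary gland such genes are expressed largely by stromal fibroblasts, and they are used as markers of fibrotic and desmoplastic matrix.

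The 10 genes were unequal in level, and biglycan (Bgn) led them. Levels were read as FPKM, fragments counted on a gene relative to its exon length and to the reads of the library. Order was taken from the mean of log2(FPKM + 1) over the 6 tumors. The length is that of all annotated exons merged, which need not match the transcripts expressed, so the order of genes depends on it. Dcn, for example, had 651 to 2247 reads per tumor on 5838 exon bases and Lum 355 to 1584 on 2448. Where 3 values of a group are given below, they are those of replicates 1, 2 and 3 in that order. In bulk tumors, fewer cells of a type cannot be told apart from less RNA per cell. The mean log2 level was 4.60 for Bgn, 3.66 for Lum, 3.38 for Dcn, 3.15 for Prelp, 3.05 for Aspn, 2.41 for Hspg2, 2.36 for Vcan, 1.81 for Ogn, 1.49 for Fmod and 0.33 for Omd. The mean of Bgn, 26.2 FPKM, lay above that of 86.8% of the 15069 genes tested, those whose mean FPKM was 0.5 or more, and Fmod, at 1.998 FPKM, lay above 26.4%. Bgn exceeded Lum in 6 of 6 tumors and Fmod exceeded Omd in 6 of 6. For each of these steps the sign-flip permutation test, an exact test over 6 tumors, gave p = 0.03125, the smallest it allows, and an adjusted p of 0.141 over the 9 neighbouring pairs. Neighbours in between, from Lum down to Fmod, kept their order in 3 to 5 of 6 tumors and did not differ beyond their spread, and no neighbouring pair had an adjusted p under 0.05.

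**Figure D1:**
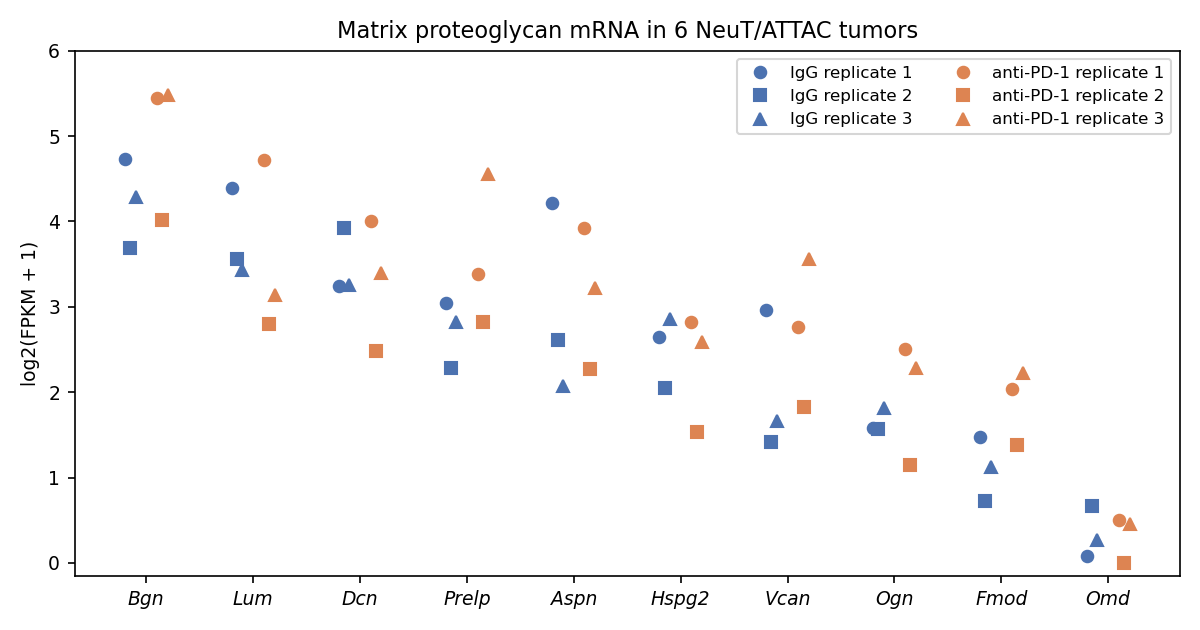
Level of each of the 10 proteoglycan genes, as log2(FPKM + 1) on the vertical axis, in 3 IgG tumors (blue) and 3 anti-PD-1 tumors (orange), with 1 point per tumor and genes ordered by mean. Bgn is highest, Omd lies near 0, and the colors overlap in every gene.

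Among the fibril-binding members related to decorin, Bgn, which binds collagen and can signal to macrophages when set free from the matrix, had 25.5, 11.9 and 18.5 FPKM in the IgG tumors and 42.5, 15.2 and 43.7 FPKM in the anti-PD-1 tumors. Anti-PD-1 replicates 1 and 3 stood above all IgG tumors, and anti-PD-1 replicate 2 lay among them. The group means were 18.6 ± 6.77 and 33.8 ± 16.1 (SD, n = 3 each), and the log2 fold change on the log2(FPKM + 1) scale was 0.75 (standard error 0.44, 95% interval -0.29 to 1.79, limma adjusted p = 0.517). Bgn is on chromosome X (chrX:73483602-73495933, plus strand, GRCm38), and its values rest on 1748 to 6635 reads per tumor. The log2 fold change ran from 0.47 without IgG replicate 2 to 1.24 without anti-PD-1 replicate 2.

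Dcn (decorin), the closest relative of Bgn, which binds type I collagen and TGF-beta, had 8.47, 14.2 and 8.57 FPKM in the IgG tumors and 15.0, 4.60 and 9.55 FPKM in the anti-PD-1 tumors. The groups overlapped completely, with the highest and the lowest tumor both in the anti-PD-1 group. Its log2 fold change was -0.18 (standard error 0.39, 95% interval -1.10 to 0.75, limma adjusted p = 0.879), and it was -0.53 without anti-PD-1 replicate 1, turned to 0.04 without IgG replicate 2, and reached 0.24 without anti-PD-1 replicate 2. Aspn (asporin), which binds collagen but carries no glycosaminoglycan chain, had 17.6, 5.13 and 3.22 FPKM in the IgG tumors and 14.1, 3.82 and 8.35 FPKM in the anti-PD-1 tumors. Here the widest spread was among the IgG tumors, and the group means of 8.65 ± 7.81 and 8.76 ± 5.16 (SD, n = 3 each) were almost the same. The log2 fold change of Aspn was 0.17 (standard error 0.61, limma adjusted p = 0.928), and it turned negative without IgG replicate 2 (-0.01), IgG replicate 3 (-0.28) or anti-PD-1 replicate 1 (-0.22) and was 0.79 without IgG replicate 1.

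The ratio of Bgn to Dcn, which does not depend on how libraries are scaled, was 3.01, 0.840 and 2.16 for the IgG tumors and 2.83, 3.31 and 4.57 for the anti-PD-1 tumors. IgG replicate 2 was the tumor in which Dcn exceeded Bgn. The mean log2 ratio, taken as log2(FPKM + 1) of Bgn minus that of Dcn, was 0.76 ± 0.89 for IgG and 1.69 ± 0.35 for anti-PD-1 (SD, n = 3 each), a difference of 0.93 (two-sided exact permutation test, p = 0.2, where the smallest p that 3 against 3 allows is 0.1). Without IgG replicate 2 the difference was 0.43. Bgn made up 22.1 to 31.6% of the summed FPKM of the 10 genes in IgG tumors and 33.6 to 37.7% in anti-PD-1 tumors, and Dcn made up 8.95 to 26.4% and 8.25 to 11.9%. The shares of Bgn did not overlap, and how often shares of other genes do so was not computed. In level, as log2(FPKM + 1), the groups did overlap for Bgn. On that scale they did not overlap for 18.1% of all genes tested, 9.3% with all anti-PD-1 tumors higher and 8.75% with all lower.

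Among the keratan sulfate members, Fmod (fibromodulin), which binds collagen at early steps of fibril assembly, had 1.77, 0.655 and 1.18 FPKM in the IgG tumors and 3.11, 1.60 and 3.68 FPKM in the anti-PD-1 tumors. The overlap was narrow, since anti-PD-1 replicate 2 lay just under IgG replicate 1. Fmod had means of 1.202 ± 0.559 and 2.79 ± 1.08 (SD, n = 3 each) and a log2 fold change of 0.77 (standard error 0.30, 95% interval 0.08 to 1.47, unadjusted p = 0.0336, limma adjusted p = 0.380). It was the only member with an unadjusted p under 0.05, where 12.3% of all genes tested had one, 6.22% with a higher and 6.05% with a lower mean in anti-PD-1 tumors. Because Fmod is low, with 52 to 289 reads per tumor, the added 1 shrinks its change: with 0.1 added its log2 fold change was 1.17, and from voom on reads recovered from the FPKM it was 1.25. The difference held its direction without each tumor in turn (0.58 to 1.03), but its unadjusted p was above 0.05 without IgG replicate 2, IgG replicate 3 or either of anti-PD-1 replicates 1 and 3. That p was also above 0.05 with no filter on low FPKM.

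Prelp, a basic protein that bridges collagen and the heparan sulfate of basement membranes, had 7.26, 3.88 and 6.10 FPKM in the IgG tumors and 9.41, 6.08 and 22.6 FPKM in the anti-PD-1 tumors. Anti-PD-1 replicate 3 exceeded every other tumor, and anti-PD-1 replicate 2 fell between IgG replicates 2 and 3. The log2 fold change of Prelp was 0.87 (standard error 0.44, 95% interval -0.16 to 1.90, limma adjusted p = 0.453) and 0.39 without anti-PD-1 replicate 3. Lum (lumican), which shares a collagen site with Fmod, had 19.9, 10.8 and 9.81 FPKM in the IgG tumors and 25.3, 5.98 and 7.81 FPKM in the anti-PD-1 tumors. Replicate 1 was the highest tumor of either group for Lum, and the lowest values were both under anti-PD-1. Its log2 fold change was -0.24 (standard error 0.51, limma adjusted p = 0.873), and it turned to 0.06 without IgG replicate 1 and to 0.15 without anti-PD-1 replicate 2. Without anti-PD-1 replicate 1 it was -0.82, with an unadjusted p under 0.05 and a limma adjusted p of 0.4485.

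Omd (osteomodulin), a member known from bone matrix, was close to the limit of detection, with 3, 32 and 11 reads for the IgG tumors and 24, 0 and 20 for the anti-PD-1 tumors. Its mean of 0.274 FPKM kept it out of the test, and the 0 in anti-PD-1 replicate 2 allows up to 0.0550 FPKM at 3 reads, counting error only. Ogn (osteoglycin, or mimecan) had 2.001, 1.96 and 2.52 FPKM in the IgG tumors and 4.67, 1.22 and 3.86 FPKM in the anti-PD-1 tumors. For Ogn the IgG tumors were close together, and anti-PD-1 tumors lay on both sides of them. For Ogn the log2 fold change was 0.33 (standard error 0.35, limma adjusted p = 0.732), between 0.06 without anti-PD-1 replicate 1 and 0.74 without anti-PD-1 replicate 2.

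Of the large members, Vcan, whose chondroitin sulfate chains and hyaluronan hold water in provisional matrix, had 6.80, 1.67 and 2.18 FPKM in the IgG tumors and 5.81, 2.55 and 10.8 FPKM in the anti-PD-1 tumors. IgG replicate 1 was above all anti-PD-1 tumors but 1. The log2 fold change of Vcan was 0.71 (standard error 0.54, 95% interval -0.55 to 1.96, limma adjusted p = 0.615), from 0.29 without anti-PD-1 replicate 3 to 1.18 without IgG replicate 1. Hspg2 had 5.25, 3.12 and 6.24 FPKM in the IgG tumors and 6.08, 1.89 and 5.03 FPKM in the anti-PD-1 tumors. Perlecan mRNA thus overlapped between the groups, with anti-PD-1 replicate 2 lowest. Its log2 fold change was -0.19 (standard error 0.37, limma adjusted p = 0.859) and ran from -0.45 without anti-PD-1 replicate 1 to 0.20 without anti-PD-1 replicate 2, and Hspg2 is on chromosome 4, where the median of 926 tested genes was -0.40 against 0.01 over all genes.

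Over the list, 9 of the 10 genes passed the filter on low values, and 6 of them (Prelp, Fmod, Bgn, Vcan, Ogn and Aspn) had a higher and 3 (Lum, Hspg2 and Dcn) a lower mean log2 level in anti-PD-1 tumors. None had a limma adjusted p under 0.05, where 0% of all 15069 genes did, and voom called 1 gene in all and no member. In none of the 9 did the groups fail to overlap, against the 18.1% of all genes tested given above. The median log2 fold change of the members was 0.33, from 0.06 without anti-PD-1 replicate 1 to 0.79 without IgG replicate 1. Bgn and Vcan are among the genes that the study named from these same tumors, and Fmod and Prelp are in its longer list, so their direction here is not independent evidence.

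**Figure D2:**
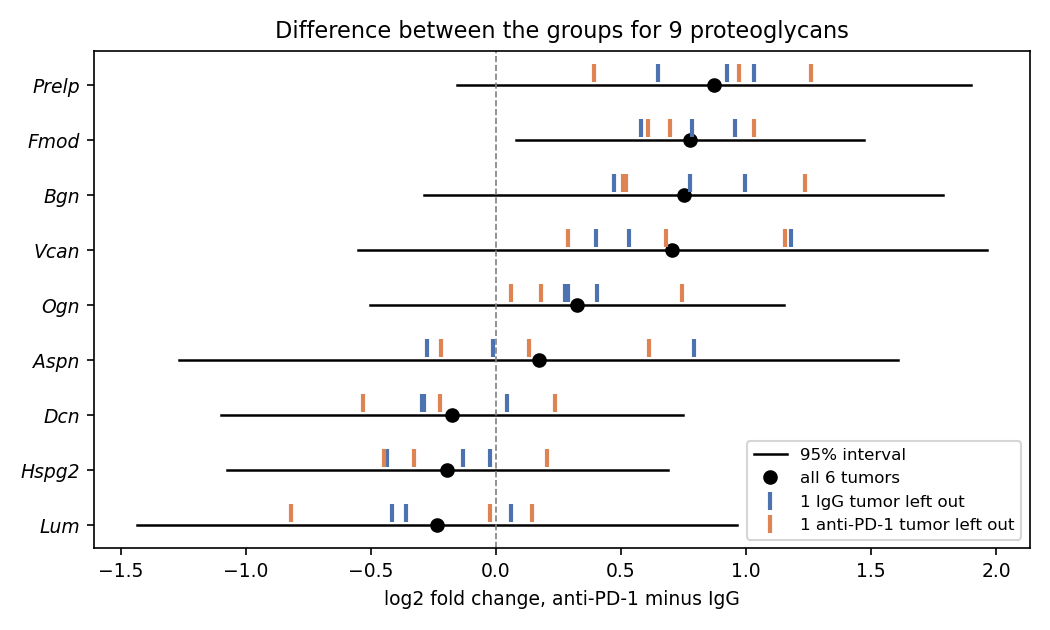
Log2 fold change of log2(FPKM + 1), anti-PD-1 minus IgG, for the 9 proteoglycans tested, with black dots for all 6 tumors, lines for the 95% interval, and ticks for fits that leave out 1 IgG (blue) or 1 anti-PD-1 (orange) tumor. The line of Fmod alone, from 0.08 to 1.47, lies above 0, and the ticks of Dcn, Lum, Aspn and Hspg2 fall on both sides of 0.

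Tumors within a group differed widely. With each gene set to its own mean over the 6 tumors, the mean of the 9 genes was 0.25, -0.46 and -0.30 for the IgG tumors and 0.63, -0.63 and 0.50 for the anti-PD-1 tumors on the log2 scale. Anti-PD-1 replicate 1 was above the own mean of 9 of 9 genes and anti-PD-1 replicate 3 of 8, whereas anti-PD-1 replicate 2 was above that of 0. IgG replicate 1 was above for 5 genes and IgG replicates 2 and 3 for 1 each. The summed FPKM of the 10 genes was 94.6, 54.0 and 58.5 for the IgG tumors and 126, 43.0 and 116 for the anti-PD-1 tumors, so the anti-PD-1 group held both the most and the least of these mRNAs.

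**Figure D3:**
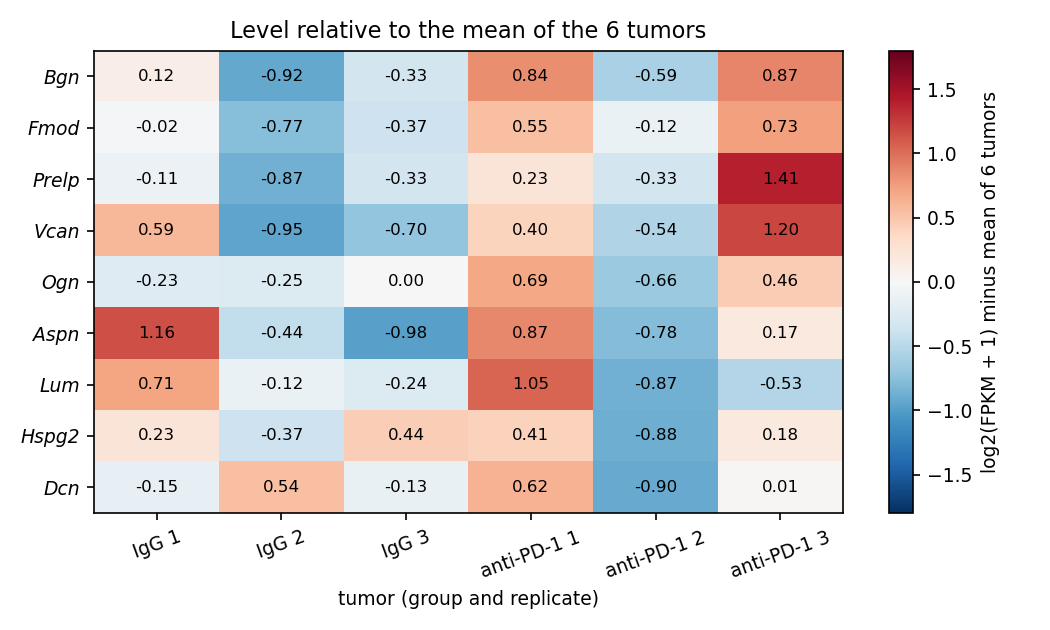
Level of 9 proteoglycans (vertical) in each of the 6 tumors (horizontal), as log2(FPKM + 1) minus the mean of the gene over the tumors, printed in each cell and colored from blue (below) to red (above). All 9 cells of anti-PD-1 replicate 1 are above 0 and all 9 of anti-PD-1 replicate 2 are below 0.

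Across the 6 tumors most pairs of members correlated positively, but for many r was negative with 2 tumors left out. Of 36 pairs, 35 had a positive Pearson r of log2(FPKM + 1), with a median of 0.579, and 8 had an r over 0.8. With the 2 tumors farthest from the median of the first gene of a pair left out, r was negative for 14 of the 36. The tumors left span a narrower range, over which r can fall or change sign for a real relation too. This step therefore cannot tell whether a relation is absent. Bgn, Fmod, Prelp and Vcan made up 6 of the 8, a set singled out after the values were seen. The other 2 of the 8 pairs fell without the farthest tumors, where Bgn with Ogn went from 0.848 to 0.279 and Lum with Aspn from 0.804 to -0.03. The highest r, 0.951, was that of Bgn with Fmod (Spearman rho 0.943, exact permutation p = 0.00694 for r, adjusted p = 0.0625 over 36 pairs, r = 0.785 without the 2 tumors farthest from the median of Bgn). Fmod and Prelp, which lie 115839 bases apart on chromosome 1, had an r of 0.911 and a rho of 1.00 (exact permutation p = 0.00139 for r, adjusted p = 0.05, r = 0.956 without the 2 farthest tumors). Dcn and Lum did not follow Bgn, Fmod, Prelp and Vcan. For Dcn, r was 0.290 with Bgn, 0.106 with Vcan, 0.062 with Fmod and 0.025 with Prelp, and all 4 were negative, from -0.42 to -0.60, without the 2 farthest tumors. For Lum, r was 0.435 with Bgn, 0.305 with Vcan, 0.217 with Fmod and -0.04 with Prelp, the 1 negative pair of the 36, and all 4 were negative, from -0.24 to -0.53, without them. Dcn came closest to Ogn (r = 0.676) and to its neighbour Lum (r = 0.634), but r was -0.29 and -0.25 without the 2 farthest tumors. These r values pool both groups, and 3 tumors per group are too few for a value within each.

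Sequences just upstream of the start sites of Bgn, Vcan, Fmod and Prelp are shown because these 4 genes varied most alike across the tumors. They are 150 bases each from the RefSeq promoter table on GRCm38.p6, read 5′ to 3′ on the strand of the gene, with capitals marking the GC box GGGCGG or its reverse complement CCGCCC. The windows are chrX:73483451-73483600 (plus) for Bgn, chr13:89742513-89742662 (minus) for Vcan, chr1:134037104-134037253 (plus) for Fmod and chr1:133921415-133921564 (minus) for Prelp.
Bgn: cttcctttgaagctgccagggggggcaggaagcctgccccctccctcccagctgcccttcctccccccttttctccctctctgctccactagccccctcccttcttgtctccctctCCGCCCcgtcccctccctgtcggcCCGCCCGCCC
Vcan: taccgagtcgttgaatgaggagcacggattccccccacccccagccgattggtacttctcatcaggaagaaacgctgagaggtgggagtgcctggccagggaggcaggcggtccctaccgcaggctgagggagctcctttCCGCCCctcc
Fmod: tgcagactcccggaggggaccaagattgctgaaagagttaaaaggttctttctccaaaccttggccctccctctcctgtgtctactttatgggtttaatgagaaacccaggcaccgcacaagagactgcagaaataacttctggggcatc
Prelp: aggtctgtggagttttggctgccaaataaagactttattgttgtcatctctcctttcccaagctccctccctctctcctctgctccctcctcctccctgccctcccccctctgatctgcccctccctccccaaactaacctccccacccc

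The 4 windows do not share the GC box. Bgn had 3 matches in the 250 bases before its start, of which the last 2 overlap in the final 10 bases, Vcan had 2, and Fmod and Prelp had 0, where 32.7% of 32851 promoters hold at least 1 on either strand. GC content of the 250 bases was 64.4% for Bgn and 62.4% for Vcan but 51.2% for Fmod and 55.6% for Prelp, beside a median of 52.4% over all promoters. Of 8 members with an entry in the table, Hspg2 was richest in GC (70.0%, with 20 CpG dinucleotides and 5 GC boxes), and Aspn was poorest. The letters TATAAA occurred in Aspn and Ogn, 2 of 8 members against 12.4% of all promoters, GGAATG in 1 (Ogn) against 12.6%, TGTGGT in 1 (Ogn) against 14.1%, and TGANTCA in 0 against 6.75%, all searched on both strands. A match describes letters and not a bound site. Dcn and Lum were not matched in the table.

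Of the small leucine-rich members, all but Bgn on chromosome X lie in 3 chromosomal clusters, together with related genes. On chromosome 10, Dcn (chr10:97479609-97518143, GRCm38, plus strand) and Lum (chr10:97565128-97572703, plus) are 46984 bases apart, and their next neighbours Kera (keratocan, of cornea) and Epyc (epiphycan, of cartilage) did not exceed 0.137 and 0.240 FPKM in any tumor. On chromosome 1, Optc (opticin, of the eye) ends 2304 bases from Prelp (chr1:133910304-133921414, minus), itself upstream of Fmod (chr1:134037254-134048277, plus), and reached at most 0.318 FPKM, while Prelp reached 22.6 and Fmod 3.68. On chromosome 13, Ecm2, Aspn, Omd and Ogn follow each other at gaps of 11653, 14896 and 15223 bases, with Ecm2 at 0.282 to 0.556 FPKM, Aspn (chr13:49544443-49567565, plus) at 3.22 to 17.6, Omd (chr13:49582462-49592822, plus) at 0.593 or less and Ogn (chr13:49608046-49624501, plus) at 1.22 to 4.67. Vcan (chr13:89655312-89742509, minus) lies far from them on the same chromosome, and Hspg2 (chr4:137468769-137570630, plus) on another. Aspn, Omd and Ogn lie inside Cenpp, a centromere protein gene on the other strand with 1.74 to 2.94 FPKM, but only 7 exon bases of Aspn overlap it. For Prelp, 350 exon bases overlap the antisense gene Gm15851, which had at most 0.0686 FPKM. Whether the counting used strand is not given in the sources used here.

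The members were then set against 10 fibroblast markers, since bulk tumors hold different amounts of stroma. The mean log2 level of the markers was 3.64, 2.70 and 3.13 for the IgG tumors and 4.15, 2.73 and 3.69 for the anti-PD-1 tumors, the same 3 tumors leading as for the proteoglycans. Bgn followed the markers most closely (r = 0.938, rho = 0.943, exact permutation p = 0.00972 for r, adjusted p = 0.0875 over 9 genes, r = 0.884 without the 2 farthest tumors). Dcn had the lowest r, 0.435 (rho = 0.371, exact permutation p = 0.399, r = 0.867 without the 2 farthest tumors), and the other 7 members lay between 0.651 and 0.838. IgG replicate 2, with the lowest marker level and the second highest Dcn, was the tumor off the line. With the 5 collagen genes taken out of the markers, r was 0.791 for Bgn (0.870 without the 2 farthest tumors) and 0.762 for Dcn (-0.42 without them), and Ogn was the highest with an r of 0.972 and a rho of 1.00 (exact permutation p = 0.00139 for r, adjusted p = 0.0125, r = 0.989 without the 2 farthest tumors).

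**Figure D4:**
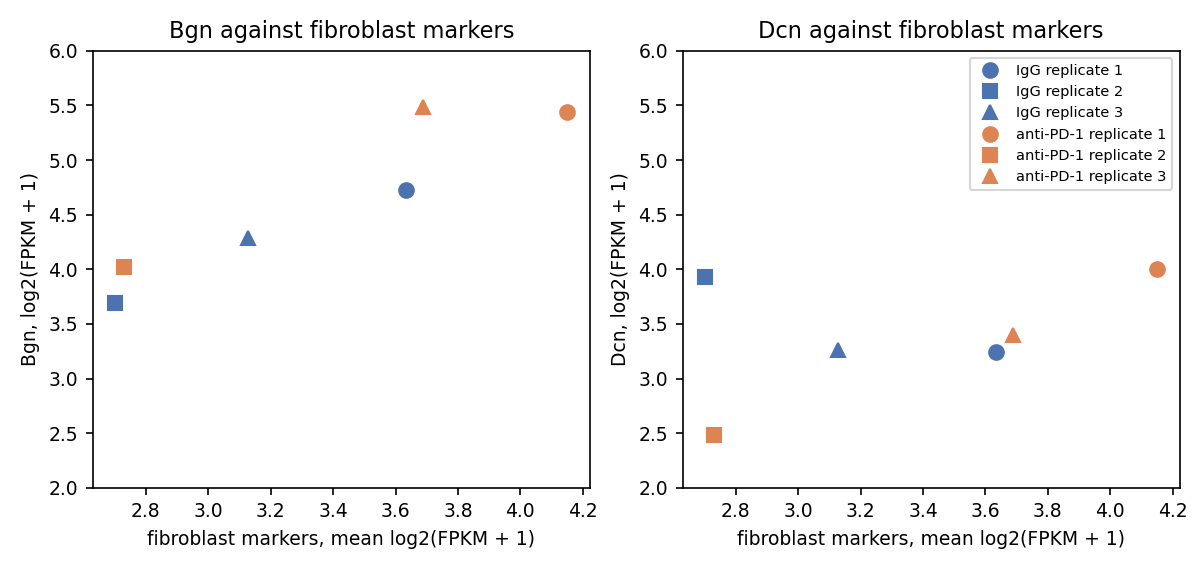
Level of Bgn (left) and Dcn (right), as log2(FPKM + 1), against the mean log2(FPKM + 1) of 10 fibroblast markers, with 1 point per tumor (IgG blue, anti-PD-1 orange). Bgn is higher where the markers are higher (r = 0.938), while for Dcn (r = 0.435) the square of IgG replicate 2 lies high at the lowest marker level.

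Per fibroblast marker level, Bgn was higher in every anti-PD-1 tumor than in every IgG tumor. The difference of Bgn from the marker mean was 1.08, 0.98 and 1.15 for the IgG tumors and 1.29, 1.28 and 1.79 for the anti-PD-1 tumors on the log2 scale, a group difference of 0.38 (exact permutation test, p = 0.1, the smallest possible, adjusted p = 0.450 over 9 genes). Hspg2 was lower in every anti-PD-1 tumor, with -1.002, -0.67 and -0.28 for the IgG tumors and -1.33, -1.20 and -1.10 for the anti-PD-1 tumors and a group difference of -0.56 (exact permutation test, p = 0.1, adjusted p = 0.450). Neither separation remained with the markers taken without the collagens, where the group difference was 0.61 for Bgn (exact permutation p = 0.2) and -0.33 for Hspg2 (exact permutation p = 0.3). Without anti-PD-1 replicate 3 the difference of Bgn was 0.22, and without IgG replicate 3 that of Hspg2 was -0.38. Of all genes tested, 2.09% had groups that did not overlap on this scale, a share over genes of every cell type. Since the smallest possible p is 0.1, the adjusted test could not call any member, whatever its values. For the other 7 members the groups overlapped, with differences from -0.60 for Lum and -0.54 for Dcn to 0.41 for Fmod and 0.50 for Prelp. These sizes depend on single tumors. That of Dcn was -0.09 without IgG replicate 2 and -0.90 without IgG replicate 1, and that of Lum went from -0.31 without anti-PD-1 replicate 3 to -0.87 without anti-PD-1 replicate 1. With anti-PD-1 replicate 3 left out, Prelp had 0.10 and Fmod 0.32, and leaving out anti-PD-1 replicate 1 gave 0.92 and 0.64. Fmod was lowest, at 0.26, when anti-PD-1 replicate 2 was left out. With all tumors kept and the markers taken without the collagens, the differences were -0.37 for Lum, -0.31 for Dcn, 0.64 for Fmod and 0.73 for Prelp.

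The genes whose pattern over the 6 tumors was most like the mean of the 9 members were taken from the 7629 protein-coding genes whose mean FPKM was 5 or more. They were Sphk1, a sphingosine kinase (r = 0.997), Mfap5, a microfibril protein (0.992), Serping1, the C1 inhibitor (0.989), Fstl1, a secreted follistatin-like protein (0.987), Cul4a, a ubiquitin ligase scaffold (0.984), Trmt1, a tRNA methyltransferase (0.978), Sparc, a collagen-binding matricellular protein (0.9749), and Ctsk, the protease cathepsin K (0.974). Sparc had 111, 51.4 and 62.9 FPKM in the IgG tumors and 162, 58.5 and 125 FPKM in the anti-PD-1 tumors, the order of tumors seen for Bgn except at the top. Of the collagens in the marker lists, the only ones looked up here, Col6a1 (0.954) and Col5a1 (0.952) came nearest. Of the cartilage markers, Sox9, a transcription factor of chondrocytes and of some epithelia, had an r of -0.93, while the other 5 compared lay from 0.065 (Col9a2) to 0.742 (Col11a2). These r values describe 6 points that share libraries.

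Genes for other proteoglycans and for the making and cleaving of their chains were taken from 9 lists, of which 77 of 111 genes passed the filter. None had a limma adjusted p under 0.05, and 16 (20.8%) had an unadjusted p under 0.05, 11 higher and 5 lower, beside 12.3% of all genes tested. The 11 include Chsy3, whose mean passed the filter only through the anti-PD-1 group, so its call carries no weight. Adjusted p for the 16 was 0.344 to 0.407. All 5 lower genes are on chromosomes 4 or 9, where the medians over tested genes were -0.40 and -0.36, and 2 of the higher ones, Cspg5 and Mmp3, are also on chromosome 9. The median over the 77 genes was 0.07.

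Heparan sulfate genes held the most of these by count, in the list with the most genes tested. By share they did not lead, with 3 of 9 for cell surface and 2 of 5 for other large or secreted proteoglycans. Of 16 tested, 8 had a higher and 8 a lower mean (median log2 fold change -0.03), 5 had an unadjusted p under 0.05, and in 5 the groups did not overlap, beside 12.3% and 18.1% of all genes tested. The 3 higher ones were the 3-O-sulfotransferases on the list, enzymes that add a late sulfate to heparan sulfate. Hs3st3b1 had 26.3 to 55.8 FPKM in IgG and 75.7 to 92.0 in anti-PD-1 tumors (log2 fold change 1.26, standard error 0.28), Hs3st1 had 13.7 to 58.3 and 67.4 to 78.2 (1.39, standard error 0.46, but 0.92 without IgG replicate 3), and Hs3st3a1 had 1.73 to 8.12 and 12.99 to 15.6 (1.65, standard error 0.40). None of the 3 overlapped between groups, and 32.9% of the exon bases of Hs3st3a1 are shared with F930015N05Rik on the other strand, which had at most 0.248 FPKM. The lower ones were Extl1, a chain-elongating enzyme (-2.05, chromosome 4), and Glce, the epimerase that makes iduronic acid (-0.81, chromosome 9). Sulf2, which removes sulfates outside the cell, was the most abundant gene of the list at 68.5 FPKM, and its groups overlapped (0.02, standard error 0.19, limma adjusted p = 0.9747).

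Of 9 cell surface proteoglycans tested, 3 had an unadjusted p under 0.05 and 0 a limma adjusted p under 0.05. In 2 of the 9 the groups did not overlap. Over all genes tested, 12.3% had such an unadjusted p and 18.1% did not overlap. Gpc4, a membrane-anchored glypican, had 27.2 to 35.3 FPKM in IgG and 46.9 to 65.2 in anti-PD-1 tumors (log2 fold change 0.81, standard error 0.18), and Gpc6 was at 0.162 to 1.87 and 1.84 to 3.19 (1.06). Sdc3, a syndecan, had 13.7 to 40.8 and 3.72 to 11.5 FPKM (-1.81, standard error 0.48) and is on chromosome 4, while Sdc4, the most abundant of them at 220 FPKM, had a log2 fold change of -0.10. Among 5 other large or secreted proteoglycans, Agrn, a basement membrane heparan sulfate proteoglycan like perlecan, had 26.8 to 48.2 FPKM in IgG and 13.3 to 16.8 in anti-PD-1 tumors (-1.07, standard error 0.24) and is also on chromosome 4. Cspg5 was at 0.898 to 3.58 and 4.24 to 6.33 FPKM (0.91, but 0.54 without IgG replicate 2), and Srgn, the granule proteoglycan of blood cells, had a log2 fold change of -0.38 with overlapping groups.

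The other lists held 0 to 2 such genes each. Of 4 other small leucine-rich genes tested, Chadl, a chondroadherin-like protein, had 0.634 to 7.59 FPKM in IgG and 7.06 to 12.3 in anti-PD-1 tumors (log2 fold change 1.804), with 19.5% of its exon bases shared with L3mbtl2 on the other strand, which had up to 3.07 FPKM against the 0.634 and 1.26 FPKM of Chadl in IgG replicates 2 and 3, and Chad had 0.57 with overlapping groups. Among 5 linker genes B3galt6 had -0.48 (chromosome 4), and B3gat3 and Fam20b both had 0.16. Of 14 chondroitin and dermatan sulfate genes, Chsy3, a chain polymerase, was at 0.156 to 0.210 and 0.689 to 1.06 FPKM (0.63) and passed the filter only through the anti-PD-1 tumors, so that it had to differ, whereas the more abundant Chsy1 (0.15) and Chpf (0.25) overlapped. Of 4 keratan sulfate genes, which build the chains of Lum and Fmod, B4galt4 had 0.49 and B4galt1 -0.26. Of 10 genes for hyaluronan and other partners of Vcan, 0 had an unadjusted p under 0.05, and Cd44, the hyaluronan receptor, had 0.22 and Cemip2, a surface protein linked to hyaluronan turnover, -0.40. Of 10 proteases, Mmp3 had 2.90 to 4.12 and 5.15 to 12.1 FPKM (0.92, but 0.61 without anti-PD-1 replicate 1), and Bmp1, which trims the propeptide of Bgn and of collagens, had 4.56 to 14.3 and 11.8 to 21.5 (1.03). Mmp3 and Bmp1 were named by the study from these tumors. Mmp14 (0.40) and Mmp2 (0.59) were the most abundant and overlapped.

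**Figure D5:**
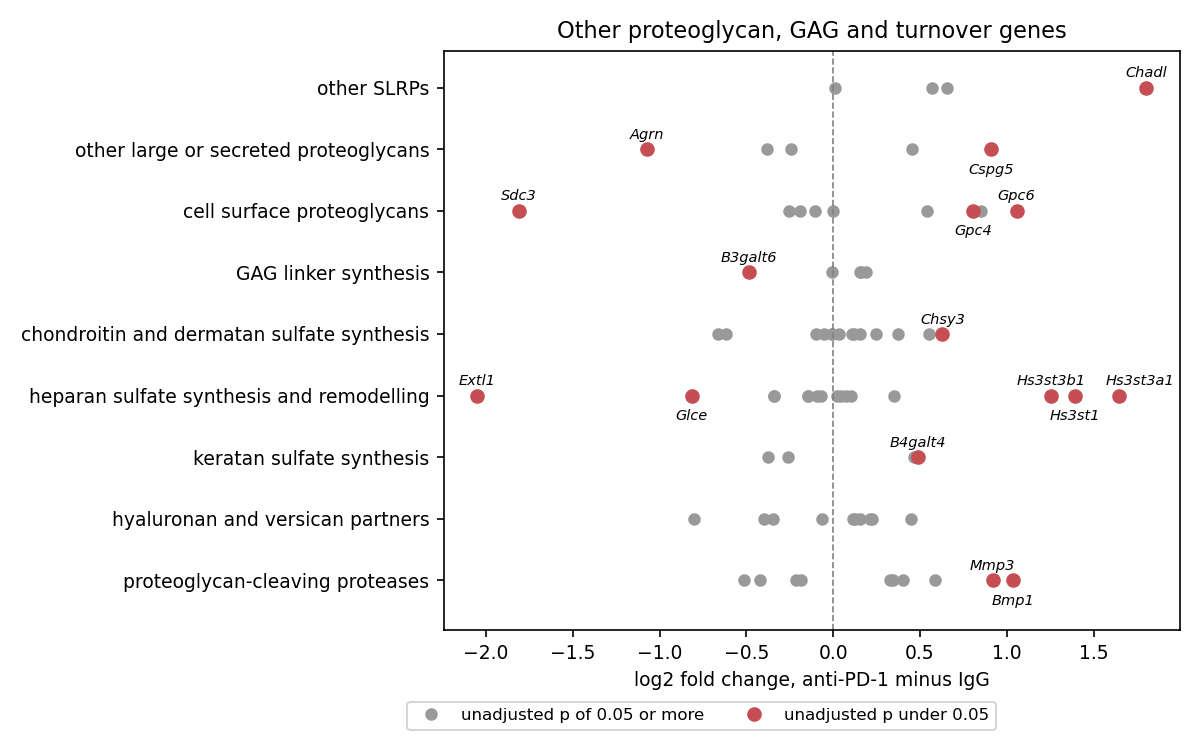
Log2 fold change of log2(FPKM + 1), anti-PD-1 minus IgG, for 77 genes in 9 lists (rows) around the 10 proteoglycans, with 1 dot per gene, red for an unadjusted p under 0.05, and GAG for glycosaminoglycan. The 16 red dots include 3 heparan sulfate sulfotransferases at 1.26 to 1.65, and none passed an adjusted p under 0.05.

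The tumors held 22009893 to 25596232 reads each by the size of the steps in their FPKM, and no pair was identical (r of 0.892 to 0.958 across genes, which are not independent). Luminal epithelial markers summed to 1893 to 2629 FPKM in IgG and 2490 to 3622 in anti-PD-1 tumors (1 of 5 with an unadjusted p under 0.05, Krt19, which was lower), against 7.10 to 12.2 and 5.07 to 5.77 for myoepithelial markers (1 of 4, Krt17, which passed the filter only through the IgG tumors) and 5.60 to 10.5 and 3.79 to 9.08 for adipocyte markers (0 of 2). Fibroblast markers summed to 77.3 to 253 and 101 to 369 FPKM (0 of 10), endothelial markers to 17.5 to 23.7 and 11.0 to 21.6 (0 of 7), and smooth muscle and pericyte markers to 48.2 to 57.5 and 36.7 to 77.9 (0 of 7). Macrophage markers summed to 189 to 327 and 242 to 395 FPKM (1 of 7, Cd68, which was higher, limma adjusted p = 0.344). Skeletal muscle markers summed to 1.60, 138 and 5.38 FPKM for the IgG tumors and 75.6, 149 and 0.645 for the anti-PD-1 tumors (0 of 6). They were highest in IgG replicate 2 and anti-PD-1 replicate 2, the tumors lowest in the members, but also high in anti-PD-1 replicate 1, the tumor highest in them. Cartilage markers summed to 382 to 613 and 638 to 945 FPKM (3 of 8, all higher, beside 12.3% of all genes tested). Comp had 18.5 to 125 and 196 to 522 FPKM (log2 fold change 2.47). Col11a2 had 1.37 to 3.49 and 5.42 to 16.6 FPKM (1.77), and Cnmd 2.98 to 37.9 and 36.8 to 94.9 FPKM (2.29). The limma adjusted p of these 3 was 0.344 to 0.358. The most abundant cartilage marker, Col9a1, had 212 to 272 and 240 to 297 FPKM (0.13), and Col2a1 had 0 to 5.36 and 0.727 to 6.06 FPKM. Col9a2 (-0.64) and Sox9 (-0.32) had lower means in anti-PD-1 tumors, and Matn1 was at 0 in all tumors. Fmod, Prelp and Chadl are also expressed in cartilage, and the part of muscle and cartilage markers in the values of the members was not tested.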

How the data were processed

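RNAseq values of 6 tumors, 3 IgG and 3 anti-PD-1 by the labels, were analyzed. By the methods of the study, reads were checked with FastQC (0.11.9), trimmed with cutadapt (3.5), and aligned and counted with RSEM (1.3.1) on a Bowtie2 (2.4.1) index of Ensembl mm10, and the authors tested counts with DESeq2 (1.36.0) in R (4.1). The authors deposited FPKM for 54532 Ensembl gene IDs per tumor, and how FPKM was made from the counts is not given in the sources used here. Of these IDs, 54409 matched GENCODE M21 (GRCm38), an earlier release than that of the authors, and 123 did not. FPKM times merged exon length fell within 0.1 of a whole multiple of 1 read for 97.0 to 97.3% of values above 0, and the step gave the reads and totals.

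FPKM was divided by median-of-ratios factors (1.00 to 1.01), 1 was added and log2 taken. Since the files hold FPKM and not counts, limma 3.58.1 (R 4.3.3) was applied to the 15069 genes whose mean FPKM was 0.5 or more (lmFit, eBayes with trend, two-sided, Benjamini-Hochberg). A fold change on this scale understates that of low genes. Single values were compared by exact permutation of 3 against 3 tumors (smallest p 0.1) or by sign flips over 6 tumors. Markers and pathway lists were given as counts and medians with no set test. Python 3.11.15, numpy 2.4.6, pandas 2.3.3, scipy 1.17.1 and matplotlib 3.10.9 were used, and the fit was tested on simulated data.

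The members and lists were chosen with earlier results of these data known. Named genes were the 10 members, the genes of each list with an unadjusted p under 0.05 and the 2 with the highest mean FPKM, the 8 genes most like the members, and neighbours in their clusters; of marker lists, sums and counts are given in place of single genes apart from those named. Alternatives were 0.1 added to FPKM, no filter on low FPKM or a minimum mean of 2, the deposited FPKM without factors, quantile normalization, eBayes with no trend, the replicate number as a block, limma voom on recovered reads, markers without collagens, Spearman correlation, and leaving out each tumor.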

Additional observations from a re-analysis of the deposited data

How the results depend on the processing

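No setting gave a member an adjusted p under 0.05. Over all genes that count was 0, 1 with voom and 0 to 12 with a tumor left out (12 without IgG replicate 1), and unadjusted calls, 1848, ran from 957 to 2687. For the members, unadjusted calls were 1, but 0 with no filter and 0 with a minimum mean of 2, which drops Fmod, and 0 to 4 with a tumor left out (4 without anti-PD-1 replicate 2, and 1 without anti-PD-1 replicate 1, which was Lum and not Fmod). The 16 unadjusted calls of the pathway lists ran from 9 (without IgG replicate 2 or anti-PD-1 replicate 3) to 19. With a tumor left out, the log2 fold change ran from -0.53 to 0.24 for Dcn, -0.82 to 0.15 for Lum, -0.28 to 0.79 for Aspn and -0.45 to 0.20 for Hspg2, while Bgn, Fmod, Prelp, Vcan and Ogn stayed above 0. Relative to fibroblast markers the median of the members was -0.04, 0.19 without collagens and -0.11 to 0.19 with a tumor left out, Ogn turned to 0.19 without collagens (-0.32 to 0.14 with a tumor left out), and Aspn to 0.034 (-0.63 to 0.19). Of the 8 genes most like the members, 1 was shared with Spearman correlation and 2 to 5 with a tumor left out. The cause of these shifts was not tested beyond the smaller number of tumors or genes. Of all other values recomputed, 634 for single genes or lists and 103 for main comparisons kept their direction and side of the threshold or moved by less than the spread or 1.5 times, and 20 medians of lists moved by more.

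The deviations of same-numbered tumors correlated at -0.16, 0.01 and 0.19, and not every tumor was closest to its own number. With 3 tumors per group this cannot tell whether the replicate numbers pair the tumors. With the replicate number as a block, 3 members in place of 1 had an unadjusted p under 0.05 (Bgn, Fmod and Prelp), and 0 had an adjusted p under 0.05. For the Bgn to Dcn ratio the paired sign-flip test, an exact permutation, gave p = 0.5, but 3 pairs are too few for a p under 0.05. Depth limits Omd, with 0 to 32 reads, and 3 tumors per group limit all other members.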
